A study of Mus musculus with 45 samples.

Results

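A set of 88 protein-coding mouse genes had transcripts that fell in the inner cell mass (ICM) of the blastocyst and rose in embryonic stem (ES) cells when the transcription factor GABPA was degraded. They were selected on the data themselves, from 9888 protein-coding genes with a mean level of at least 1 FPKM, the number of fragments scaled for transcript length and library depth, in at least 1 group in the E4.5 ICM and in 2iES cells alike, out of 21897 protein-coding genes and 55385 identifiers in the tables. A gene was a member if the ratio of mean FPKM after dTAG13 to mean FPKM with DMSO, each raised by 0.1, was at most 0.6 in the E4.5 ICM and at least the inverse of 0.6, rounded to 2 decimals, in 2iES cells. The opposite pattern, higher in the ICM and lower in 2iES cells, held for 124 genes, while 1220 genes were lower in both and 795 were higher in both.

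All embryos and cells, controls included, carried *Gabpa* alleles fused to a degron (*Gabpa* dTAG/dTAG), so that the compound dTAG13 removes the GABPA protein. Embryos received 1 μM dTAG13 or the solvent DMSO, with treatment from 6 to 30 h after fertilization for the late two-cell stage (3 libraries in each group), from 42 h after fertilization for the morula (2 in each group) and from 84 to 100 h for the ICM, which is labelled E4.5 and was freed of trophectoderm by immunosurgery (2 in each group). The ICM is a mixture of epiblast and primitive endoderm precursors. The 2iES cells are a line derived from E14 ES cells by picking knock-in clones, kept in 2i with LIF and given 0.5 μM dTAG13 or DMSO for 24 h (2 in each group). Time of exposure, dose and cell source therefore differ between the ICM and 2iES comparisons and cannot be told apart from the difference between the systems.

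GABPA belongs to the ETS family of transcription factors. It pairs with GABPB and binds DNA at a core that contains GGAA, commonly written CCGGAAG in its longer form, mostly near transcription start sites of broadly expressed genes. The epiblast gives rise to the embryo proper, and ES cells in 2i, an inhibitor pair that blocks MEK and GSK3, are used as its culture counterpart. In bulk samples such as these, fewer cells of a type and less RNA per cell cannot be told apart. The study states that epiblast cell number did not yet differ between DMSO and dTAG13 when the ICM was collected.

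The libraries held 9457933 to 12382705 counts in morulae and 18266057 to 27660132 elsewhere. *Gabpa* mRNA, which the degron does not target, was higher after dTAG13 in every system. In the ICM it was 11.03 and 12.0 FPKM with DMSO and 30.4 and 29.9 FPKM with dTAG13, and in 2iES cells it was 8.67 and 7.05 against 14.7 and 14.5 FPKM. On counts its log2 fold change was 0.950 (SE 0.052) in the ICM, a smaller rise than in FPKM. It was 0.934 (SE 0.131) in 2iES cells and 0.735 (SE 0.201, edgeR adjusted p = 0.152) in the morula. The level of *Gabpa* mRNA therefore does not report the loss of the protein. Markers of other cell types moved too. The summed level of 16 trophectoderm markers was 322 TPM (transcript abundance scaled to the same total in every library) in both ICM libraries with DMSO and 1459 and 1460 TPM with dTAG13, and 9 of the 15 markers tested there were called higher and 1 lower. In 2iES cells that sum ranged from 145 to 186 TPM with DMSO and from 161 to 168 TPM with dTAG13. The 16 primitive endoderm markers summed to 1066 to 1095 TPM in ICM with DMSO and to 1838 to 1862 TPM with dTAG13, with 2 of 16 called higher, and none of the 16 was at 0 in the ICM. The 20 epiblast markers rose in sum, from 2879 to 2934 TPM up to 6026 to 6052 TPM, although 12 of the 20 were called lower and 1 higher. That 1 gene is *Dppa3*, whose mean FPKM was 1532 with DMSO and 5813 with dTAG13. Over all genes tested in the ICM, 13.2% were called lower and 12.1% higher. The part of these marker shifts in the values of the 88 genes was not tested.

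Promoters are shown first, for the members with the ETS core CCGGAAG. RefSeq promoter windows of 300 bases (250 before the start and 50 after it) were found for 65 of the 88 members. The RefSeq start lay within 100 bases of the GENCODE one for 51 of them, and all 65 enter the motif shares below. Of the 65, 8 hold CCGGAAG on either strand. For the 6 of these whose match lies wholly within the 150 bases before a RefSeq start near the GENCODE one, those 150 bases are printed on the gene's strand, from GRCm38.p6, with CCGGAAG or its reverse complement CTTCCGG in capitals.
*Slc25a17*, chr15:81360766-81360915 (−): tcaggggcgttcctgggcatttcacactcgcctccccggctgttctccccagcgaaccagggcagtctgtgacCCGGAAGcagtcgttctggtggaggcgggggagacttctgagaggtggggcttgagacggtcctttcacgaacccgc
*Acbd5*, chr2:23068051-23068200 (+): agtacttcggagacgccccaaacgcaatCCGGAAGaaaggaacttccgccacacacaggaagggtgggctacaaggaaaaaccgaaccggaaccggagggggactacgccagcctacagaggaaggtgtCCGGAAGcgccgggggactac
*Atp7a*, chrX:106027074-106027223 (+): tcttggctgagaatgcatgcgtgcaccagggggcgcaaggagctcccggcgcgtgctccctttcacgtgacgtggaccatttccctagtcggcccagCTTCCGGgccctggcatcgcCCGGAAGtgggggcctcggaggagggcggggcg
*Ccp110*, chr7:118712393-118712542 (+): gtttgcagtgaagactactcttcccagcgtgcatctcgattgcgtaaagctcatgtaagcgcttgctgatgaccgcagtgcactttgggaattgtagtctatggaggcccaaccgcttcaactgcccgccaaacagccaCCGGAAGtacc
*Mbd5*, chr2:48949358-48949507 (+): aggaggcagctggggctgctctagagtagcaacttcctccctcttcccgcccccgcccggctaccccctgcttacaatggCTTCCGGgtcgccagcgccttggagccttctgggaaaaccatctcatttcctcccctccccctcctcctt
*Ulk4*, chr9:121277173-121277322 (−): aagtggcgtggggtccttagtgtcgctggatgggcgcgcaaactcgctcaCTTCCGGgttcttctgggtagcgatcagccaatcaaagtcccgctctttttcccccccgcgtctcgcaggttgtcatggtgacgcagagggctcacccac

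*Acbd5* and *Atp7a* hold 2 matches each, and the other four hold 1. The matches begin 77 bases before the start in *Slc25a17*, 122 and 21 in *Acbd5*, 53 and 33 in *Atp7a*, 11 in *Ccp110*, 70 in *Mbd5* and 100 in *Ulk4*. In *Helb*, a DNA helicase gene, the match begins 2 bases before the start and runs across it, and the RefSeq start matched to *Gm3448* lies 31353 bases from the GENCODE one, so neither is printed. The promoter of *Ccn1* is shown with other motifs marked, because *Ccn1* is a widely used readout of the TEAD cofactors YAP and TAZ. Its 150 bases hold a TATA box, TATAAA, from 25 bases before the start and a TEAD core, GGAATG, on the opposite strand (printed as CATTCC) from 103 bases before it, and hold no CCGGAAG.
*Ccn1*, chr3:145649986-145650135 (−): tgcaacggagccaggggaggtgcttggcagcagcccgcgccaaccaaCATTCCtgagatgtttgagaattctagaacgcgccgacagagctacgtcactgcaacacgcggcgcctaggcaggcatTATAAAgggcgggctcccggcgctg

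The values of the ICM and 2iES comparisons chose the members and are given as a description, with no test. Over the 88 genes the median log2 ratio was -1.28 in the ICM and 1.32 in 2iES cells. The 2 DMSO and 2 dTAG13 libraries did not overlap for 86 members in the ICM, for 85 in 2iES cells and for 83 in both. Over all 9888 genes both dTAG13 libraries lay below both controls for 43.8% in the ICM and above them for 38.8% in 2iES cells, and the selection on the same libraries sets the members' counts apart from these shares. The change was at least 2-fold in both systems for 43 members and at least 4-fold in both for 10. In the count-based fit of edgeR, 62 of the 87 members tested in the ICM were called lower and none higher, where 13.2% of all genes tested were called lower and 12.1% higher. In 2iES cells 55 of 88 were called higher and none lower, where 12.4% of all genes tested were called higher and 15.6% lower. A gene was called when its counts changed at least 2-fold, the adjusted p-value was below 0.05 and 1 of the groups had a mean FPKM of 1 or more. Because the same libraries chose the members, these counts follow from the selection and are no test of the members.

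**Figure D1:**
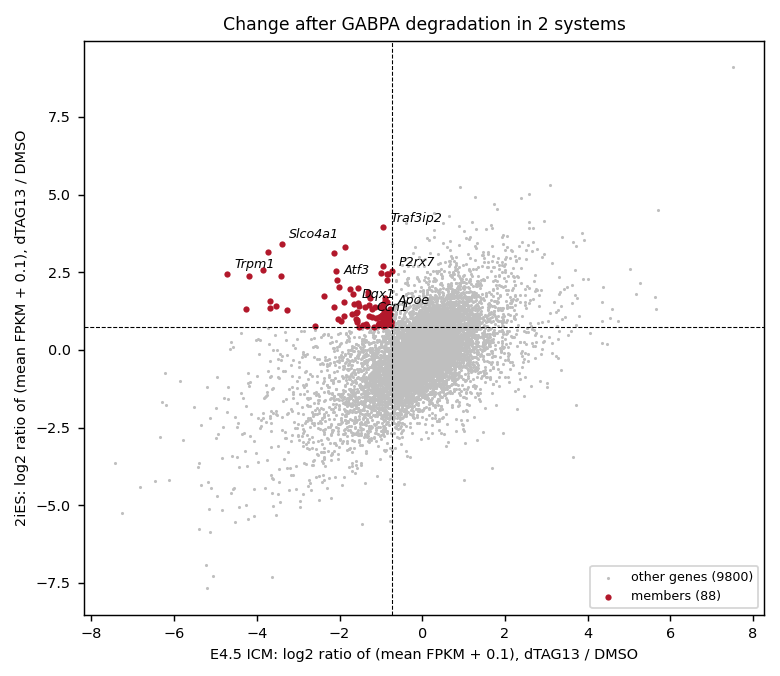
Log2 ratio of mean FPKM (plus 0.1) after dTAG13 over DMSO in the E4.5 ICM (x axis) and 2iES cells (y axis) for 9888 protein-coding genes, with the 88 members in red and the 2 ratio limits as dashed lines. The members fill the upper left corner, and most lie close to the limits.

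Just inside the ICM limit lay *P2rx7* (ratio 0.598), *Rpusd2* (0.596) and *Fam89a* (0.596), and just outside it *Siah1b* (0.601), *Chd2* (0.601) and *Rccd1* (0.606). At the 2iES limit *Adrb3* (1.675), *Nodal* (1.683) and *G0s2* (1.695) were inside, and *Cdc42ep3* (1.668), *Tmem39a* (1.662) and *Zfp2* (1.648) were outside. Leaving out each of the 8 libraries in turn gave 85 to 104 members, and 55 of the 88 were kept in all 8 of these selections.

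Most members were genes of low abundance. Their median FPKM was 3.15 (*n* = 88 genes) in ICM with DMSO, 1.36 in ICM with dTAG13, 2.41 in 2iES cells with DMSO and 7.59 in 2iES cells with dTAG13, whereas the 9888 genes had medians of 14.7, 14.0, 10.0 and 9.50 FPKM. A total of 30 members stayed under 5 FPKM in all 4 groups. With DMSO, 63 of the 88 members (71.6%) were higher in the ICM than in 2iES cells, beside 61.6% of the 9888 genes. After dTAG13 the order had turned for 56 of these 63, and 65 of the 88 stood higher in treated 2iES cells than in control ICM. The selection for a fall in the ICM and a rise in 2iES cells favours such turns. Their share over all genes was not counted. All 88 members were at 1 FPKM or more in control ICM, and 63 were in control 2iES cells.

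The secreted and surface proteins included the most abundant member. *Apoe*, which encodes apolipoprotein E, a lipid carrier of lipoproteins (chromosome 7, 19696109 to 19699188), was at 1277 and 1302 FPKM in control ICM and 755 and 749 FPKM in treated ICM. In 2iES cells it was at 1145 and 857 FPKM with DMSO and at 2431 and 2519 FPKM with dTAG13. These values are 1.72-fold lower in the ICM and 2.47-fold higher in 2iES cells, with libraries that do not overlap in either. *Nodal*, the TGF-β family ligand that maintains epiblast and patterns the embryo (chromosome 10, 61417972 to 61425338), was the only one of the 20 epiblast markers among the members. It was at 13.6 and 12.2 FPKM in control and 5.16 and 6.14 FPKM in treated ICM. In 2iES cells it read 16.98 and 13.7 FPKM with DMSO and 26.9 and 24.9 FPKM with dTAG13, so that the control levels of the systems lay close together and the treated levels far apart.

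*Ccn1* and *Ccn2* encode matricellular proteins induced by YAP, TAZ and TEAD. *Ccn1* (chromosome 3, 145646976 to 145649981) fell from 99.5 and 100.5 FPKM to 42.1 and 39.7 FPKM in the ICM and went from 4.62 and 3.38 FPKM to 8.29 and 8.90 FPKM in 2iES cells. *Ccn2* (chromosome 10, 24595442 to 24598683) was at 57.2 and 55.0 FPKM in control and 29.4 and 29.96 FPKM in treated ICM. In 2iES cells its values were 8.55 and 8.51 FPKM with DMSO and 15.8 and 14.9 FPKM with dTAG13. Both genes stood higher in treated ICM than in any 2iES library, so their opposite changes brought the systems closer together. *Ccn2* shares 23.2% of its exonic bases with *Gm15270* on the other strand, and these libraries do not keep the strand.

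Among transporters and channels, *Slco4a1* and *Trpm1* were within the first 12 members. *Slco4a1*, an organic anion transporter gene (chromosome 2, 180456245 to 180474867), had the largest change when each gene was ranked by the smaller of its 2 log2 ratios. It was at 1.38 and 1.70 FPKM in control ICM (64 and 68 counts) and at 0.03 and 0.08 FPKM in treated ICM (1 and 3 counts). In 2iES cells it went from 0.51 and 0.56 FPKM to 6.56 and 6.89 FPKM. *Trpm1*, a cation channel gene known from retinal bipolar cells and melanocytes (chromosome 7, 64153835 to 64269775), held 97 and 69 counts in control ICM and 0 counts in both treated libraries. Against a floor of 3 counts per library, that is at least 26.9-fold lower. In 2iES cells *Trpm1* was at 4.56 and 3.10 FPKM with DMSO and at 18.4 and 24.6 FPKM with dTAG13, and it was nearly silent at the late two-cell and morula stages, with no library above 0.10 FPKM.

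The sodium-phosphate cotransporter gene *Slc20a1* (chromosome 2, 129198764 to 129211616) changed less but from a higher level. It was at 72.8 and 70.0 FPKM in control ICM, at 40.2 and 41.5 FPKM in treated ICM, at 13.8 and 16.2 FPKM in control 2iES cells and at 32.8 and 30.1 FPKM in treated 2iES cells. *Slc25a17*, a carrier of the peroxisomal membrane (chromosome 15, 81318911 to 81360812), read 47.3 and 45.8 FPKM in control and 28.1 and 26.2 FPKM in treated ICM, and 58.8 and 58.6 FPKM in control and 129.6 and 131.6 FPKM in treated 2iES cells. For both transporters the groups stood well apart in each system.

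Regulators of transcription were also present. *Atf3*, a stress-induced bZIP factor (chromosome 1, 191170296 to 191218039), was at 12.7 and 13.1 FPKM in control ICM and 3.48 and 2.51 FPKM in treated ICM. In 2iES cells it was at 1.42 and 1.33 FPKM with DMSO and 7.18 and 6.73 FPKM with dTAG13. These are changes of 4.2-fold down and 4.78-fold up, and treated 2iES cells stayed below control ICM. *Ascl2*, an imprinted bHLH factor needed in the trophoblast (chromosome 7, 142966829 to 142969264), was lower in abundance, with 1.51 and 1.92 FPKM in control ICM, 0.61 and 0.96 FPKM in treated ICM, 6.96 and 4.84 FPKM in control 2iES cells and 12.3 and 12.7 FPKM in treated 2iES cells.

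Among signalling proteins, *Traf3ip2*, which encodes an adaptor of the IL-17 receptor (chromosome 10, 39612934 to 39655307), had the largest FPKM ratio in 2iES cells of all members. It was at 6.40 and 8.09 FPKM with DMSO and 115.7 and 111.8 FPKM with dTAG13, a 15.5-fold ratio, whereas in the ICM it went from 4.65 and 4.58 FPKM to 1.98 and 2.71 FPKM. *Ripk4*, a kinase of epidermal differentiation (chromosome 16, 97741933 to 97763787), was at 2.41 and 2.29 FPKM in control and 0.37 and 0.59 FPKM in treated ICM, and at 0.47 and 0.55 FPKM in control and 3.73 and 3.18 FPKM in treated 2iES cells. *Cpne2*, a calcium-dependent membrane-binding copine gene (chromosome 8, 94532990 to 94570531), went from 1.92 and 1.34 FPKM to 0.30 and 0.29 FPKM in the ICM and from 2.04 and 0.91 FPKM to 14.1 and 13.1 FPKM in 2iES cells. The 3 genes had control levels under 9 FPKM in both systems.

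The enzymes among the leading members act in unrelated reactions. *Dqx1*, a DEAQ-box ATPase gene (chromosome 6, 83057844 to 83067318), was at 43.4 and 45.4 FPKM in control ICM, 14.2 and 14.0 FPKM in treated ICM, 39.2 and 51.0 FPKM in control 2iES cells and 110.5 and 141.8 FPKM in treated 2iES cells. Its control levels overlapped between the systems and its treated levels differed widely. *Pgam2*, the muscle form of phosphoglycerate mutase in glycolysis (chromosome 11, 5801640 to 5803733), fell from 64.6 and 70.8 FPKM to 25.8 and 24.3 FPKM in the ICM and rose from 6.75 and 7.17 FPKM to 12.2 FPKM in both treated 2iES libraries. *Dpys*, the dihydropyrimidinase of pyrimidine breakdown (chromosome 15, 39768487 to 39857470), held only 18 and 15 counts in control ICM and 0 in both treated libraries, at least 5.36-fold lower, and in 2iES cells it went from 0.62 and 0.94 FPKM to 7.43 and 8.08 FPKM. *Dglucy*, the D-glutamate cyclase gene (chromosome 12, 100779057 to 100896981), was at 1.28 and 1.47 FPKM in control and 0.41 and 0.20 FPKM in treated ICM, and at 0.38 and 0.50 FPKM in control and 5.25 and 5.28 FPKM in treated 2iES cells.

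In the ICM, 10 members held 3 counts or fewer in both treated libraries, and 6 of them held 0. Besides *Trpm1* and *Dpys* the 6 were *Adamtsl1*, a secreted ADAMTS-like protein gene (29 and 25 counts with DMSO, at least 8.78-fold lower), *Gm4340* (18 and 31 counts, at least 8.07-fold), *Coro1a*, an actin-binding coronin gene (27 and 13 counts, at least 6.43-fold), and *Gm21818* (6 and 12 counts, at least 2.97-fold). In 2iES cells *Adamtsl1* was at 0.92 and 0.86 FPKM with DMSO and 4.89 and 5.27 FPKM with dTAG13. Of the remaining leading members, *Shisal2a* was at 2.08 and 1.23 FPKM in control ICM, 0.13 and 0 FPKM in treated ICM, 0.94 and 1.48 FPKM in control 2iES cells and 6.53 and 6.91 FPKM in treated 2iES cells. *AC170998.1* read 1.24 and 2.89 FPKM in control and 0.13 and 0.74 FPKM in treated ICM, and 0.25 and 0.63 FPKM in control and 1.63 and 2.59 FPKM in treated 2iES cells. The replicates of these 2 genes lay apart in most groups, though not for *Shisal2a* in treated 2iES cells. The cause was not tested. Setting the 6 genes to their bounds cannot move the median log2 fold change of counts over the members, since each bound lies below that median.

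**Figure D2:**
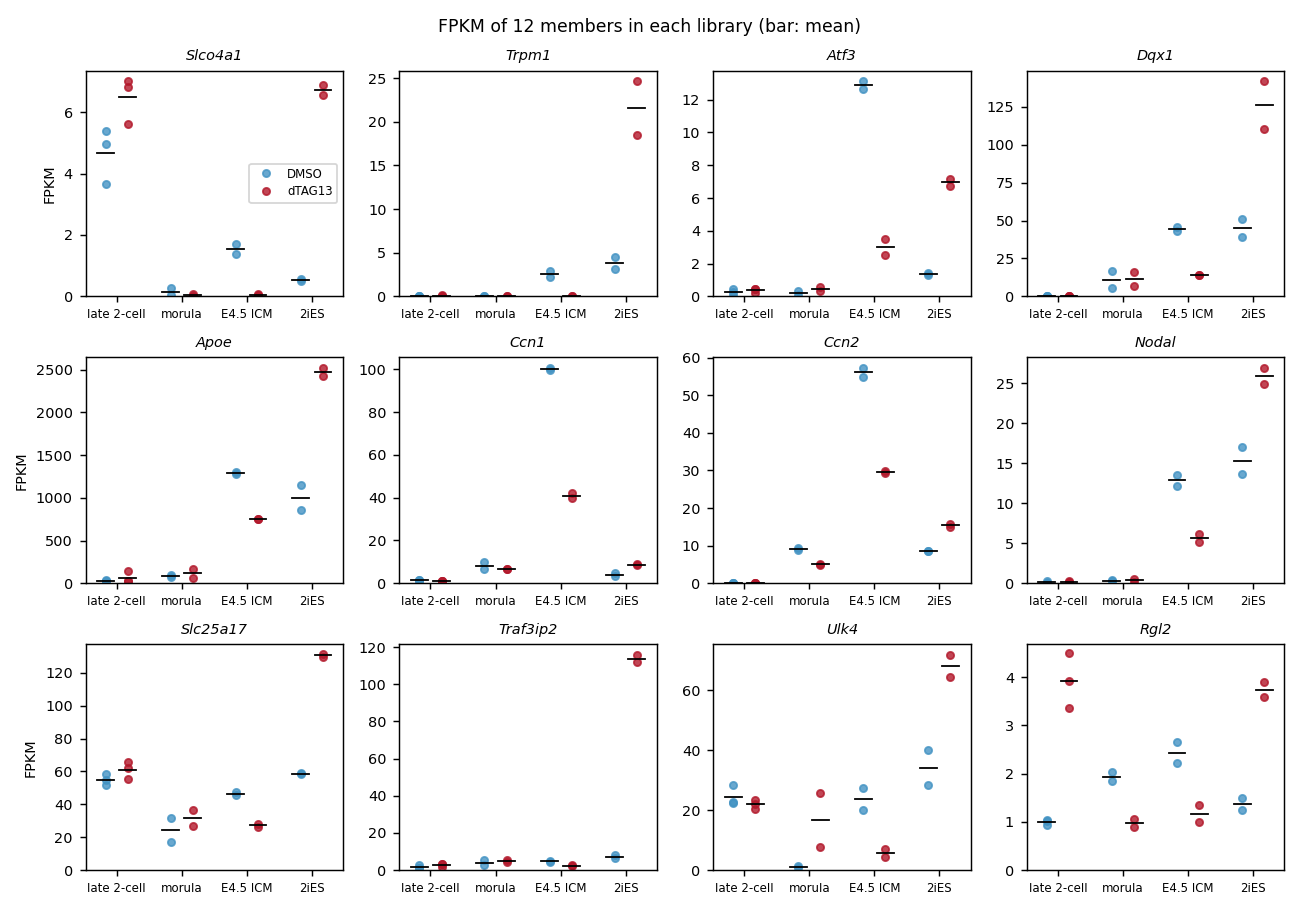
FPKM (y axis, from 0, a separate scale for each gene) of 12 members in each library of the 4 systems (x axis), with DMSO in blue, dTAG13 in red and the group mean as a bar. Red lies below blue in the E4.5 ICM and above it in 2iES cells for each gene, as the selection required, while the earlier stages show both orders.

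FPKM depends on the effective length that RSEM estimates for a gene in each library from its mix of transcripts, so a shift in that mix can move FPKM without moving the counts. The mean effective length moved by more than 1.5-fold between DMSO and dTAG13 for 11 members in the ICM and for 8 in 2iES cells. The 11 include *Dpys* and *Adamtsl1*, whose treated ICM libraries held 0 counts from which to estimate a mix. Fitted log2 fold changes of counts pointed down in the ICM and up in 2iES cells for all 88 members when the count filter was left out, but their size differed. When counts were scaled by library size and 1 fixed length per gene, the same limits gave 94 genes, of which 69 were among the 88.

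*P2rx7*, an ATP-gated channel gene (chromosome 5, 122643911 to 122691432), is the clearest case in the ICM. Its FPKM fell from 3.28 and 3.76 to 2.21 and 1.92, but its effective length went from 1008 to 1726 bases, and its counts gave a log2 fold change of -0.06 (SE 0.22). In 2iES cells the effective length of *Traf3ip2* went from 1175 to 612 bases, and its rise on the count scale was a log2 fold change of 3.00 (SE 0.14) beside a log2 FPKM ratio of 3.95. *Gpt2*, the mitochondrial alanine transaminase gene, had a log2 FPKM ratio of 1.74 in 2iES cells and a log2 fold change of counts of 0.63 (SE 0.14), with its effective length going from 3366 to 1580 bases. For *Hemk1*, a glutamine methyltransferase gene, the corresponding values were 0.96 and 0.29 (SE 0.21), with 913 and 586 bases. *Iqcg*, a calmodulin-binding protein gene of cilia and sperm, gave 2.69 and 1.69 on those 2 scales, and 48.1% of its exonic bases lie opposite exons of *Lrch3*. For these genes the FPKM ratios that chose them were larger than the change in reads, or had no counterpart in it.

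**Figure D3:**
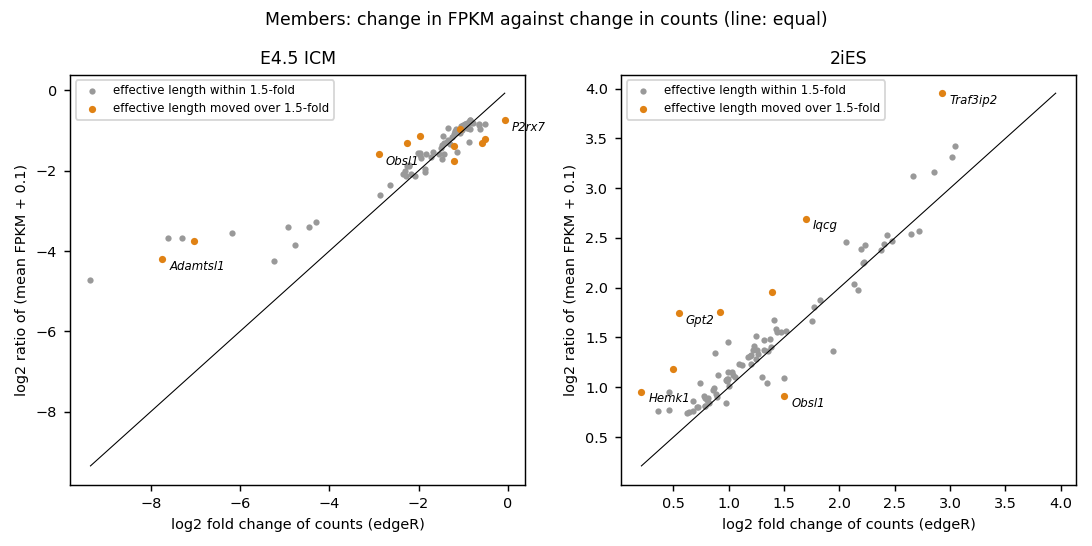
Log2 ratio of mean FPKM (plus 0.1; y axis) against the log2 fold change of counts from edgeR without the count filter (x axis) for the 88 members in the E4.5 ICM (left) and 2iES cells (right), with equality as a line. Orange points are the 11 and 8 members whose effective length moved by more than 1.5-fold, among them *P2rx7* in the ICM and *Traf3ip2*, *Gpt2*, *Iqcg* and *Hemk1* in 2iES cells.

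Some members share sequence with other genes. The same shares were not measured over all genes, so they are not given as a trait of the members. Of the 88, 35 share at least 5% of their 31-base words with transcripts of another gene, 6 share at least 50%, and 21 overlap exons on the other strand over at least 5% of their exonic bases. A total of 52 members had neither kind of overlap above 5%. Of these, 34 were called lower in the ICM, where 13.2% of all genes tested were, and 35 higher in 2iES cells, where 12.4% were. The selection used the same libraries, so these calls follow from it and are no test of overlap. The 6 genes that share at least 50% were *Gm4724*, *Gm4340*, *Gm20767*, *Tmsb15l*, *AA792892* and *Gm21818*. Their values are uncertain because reads could be split among the genes that share their words. The largest share with any 1 other gene ran from 35% for *Gm21818* to 100% for *Gm4340*. *Gm4340*, listed with two-cell-like and germline genes, shares 100% of its words with *Gm8764*, and was at 0.83 and 1.54 FPKM in control ICM, listed at 0 in treated ICM, at 0.56 and 3.96 FPKM in control and at 8.4 and 5.36 FPKM in treated 2iES cells. *AA792892* was at 3.01 and 3.41 FPKM in control ICM, 0.13 FPKM in both treated libraries, 0.09 and 0.83 FPKM in control 2iES cells and 2.73 and 3.74 FPKM in treated 2iES cells. *Gm38393* shares 14.4% of its exonic bases with *Snrpn* on the same strand, and was at 1.32 and 0.97 FPKM in control and 0.20 and 0.34 FPKM in treated ICM, and at 0.36 and 0.84 FPKM in control and 2.96 and 2.28 FPKM in treated 2iES cells.

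The late two-cell and morula libraries played no part in the selection, and their comparisons ask whether the members responded to the loss of GABPA at earlier stages. The highest control level was at the late two-cell stage for 31 of the 88 members, in the ICM for 33, in 2iES cells for 16 and in the morula for 8. Over all 9888 genes it was at these for 30.2%, 30.6%, 21.3% and 17.8%. The median FPKM of the members in late two-cell embryos was 2.69 with DMSO and 3.91 with dTAG13, and in the morula it was 1.70 and 1.72.

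At the late two-cell stage 70 of the 88 members passed the count filter. Of these, 1 was called higher and 0 lower by edgeR, where 0.476% of 17421 genes tested were called higher and 3.63% lower. Without the fold change limit 3 members (4.29%) passed the adjusted p-value, beside 8.56% of all genes. An unadjusted p-value under 0.05 was found for 14 members (20.0%) and for 21.3% of all genes. DESeq2 called 2 members higher and 2 lower, and the share it called over all genes was not counted. The median log2 fold change was 0.14 over the members tested and 0.02 over all genes tested, a difference slightly above the spread between replicates of 0.09. The fold change was positive for 48 of the 70 members (68.6%) and for 52.3% of all genes tested. The direction of the list was not tested.

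The 1 called gene was *Rgl2*, which encodes an exchange factor for the GTPase Ral (chromosome 17, 33929543 to 33937687). *Rgl2* was at 0.93, 1.03 and 1.02 FPKM with DMSO and at 4.5, 3.93 and 3.36 FPKM with dTAG13 in late two-cell embryos. All 3 treated libraries were higher than all 3 controls, with a log2 fold change of 2.00 (SE 0.25, edgeR adjusted p = 5.82e-04). In the morula its values were 2.04 and 1.84 FPKM with DMSO and 0.89 and 1.05 FPKM with dTAG13, a log2 fold change of -0.93 (SE 0.40, edgeR adjusted p = 0.336). In the ICM it was at 2.22 and 2.65 against 1.00 and 1.34 FPKM, and in 2iES cells at 1.5 and 1.25 against 3.89 and 3.58 FPKM. The gene was thus higher after dTAG13 in late two-cell embryos and 2iES cells and lower in the ICM, with libraries apart at each of these.

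The other members past the adjusted p-value at the late two-cell stage were *Rpgrip1* and *Slc20a1*. *Rpgrip1*, a gene of the photoreceptor connecting cilium, was at 21.4, 21.5 and 18.3 FPKM with DMSO and at 36.9, 28.6 and 31.9 FPKM with dTAG13 (log2 fold change 0.84, SE 0.15, edgeR adjusted p = 0.00498). *Slc20a1* was at 3.17, 2.75 and 3.61 FPKM with DMSO and at 5.41, 6.04 and 6.39 FPKM with dTAG13 (log2 fold change 0.74, SE 0.20, edgeR adjusted p = 0.0433). Neither reached a 2-fold change, and in both genes the groups did not overlap. *Apoe* was not called, with 21.8, 29.5 and 34.9 FPKM with DMSO and 141.5, 25.8 and 26.6 FPKM with dTAG13, where 1 treated library stood far above the rest.

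In the morula 66 of the 88 members passed the count filter. Of these, 1 was called higher and 0 lower by edgeR, where 0.154% of 13667 genes tested were called higher and 0.198% lower, and 8 (12.1%) had an unadjusted p-value under 0.05 beside 13.6% of all genes. The median log2 fold change was -0.05 over the members tested and -0.02 over all genes tested, with a spread between replicates of 0.07. The 2 medians differed by less than that spread.

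The 1 called gene was *Ulk4*, which encodes a pseudokinase of the ULK family (chromosome 9, 120955351 to 121277197). In the morula it was at 1.3 and 0.79 FPKM with DMSO (13 and 10 counts) and at 7.53 and 25.6 FPKM with dTAG13 (61 and 186 counts). The treated libraries were both higher and differed more than 3-fold from each other, and the log2 fold change was 3.30 (SE 0.57, edgeR adjusted p = 0.0223). Without DMSO replicate 1 (log2 fold change 3.59) or dTAG13 replicate 2 (2.17) the call was lost. At the late two-cell stage *Ulk4* was at 22.4, 22.6 and 28.5 FPKM with DMSO and 23.4, 20.3 and 22.2 FPKM with dTAG13, in the ICM at 20.0 and 27.3 against 7.06 and 4.27 FPKM, and in 2iES cells at 28.4 and 39.9 against 71.7 and 64.4 FPKM. Exons of *Ctnnb1* lie opposite 8.93% of its exonic bases.

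**Figure D4:**
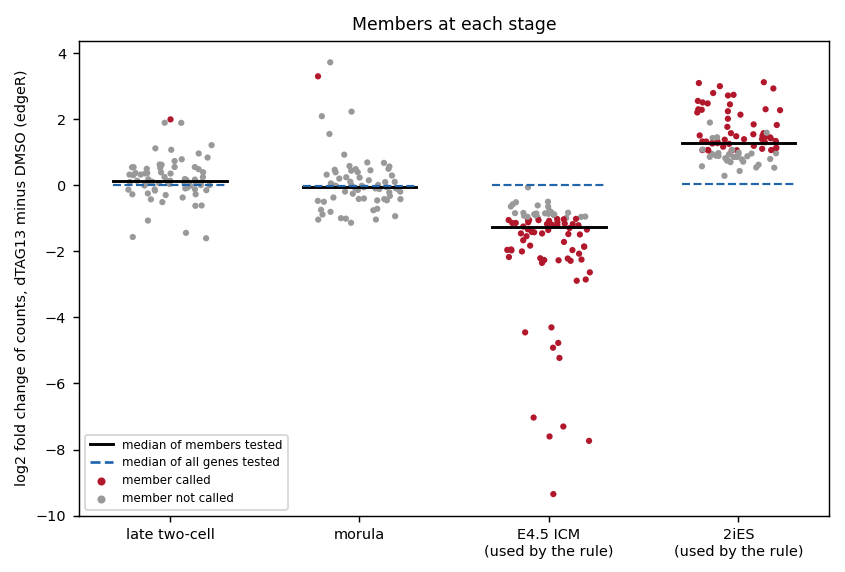
Log2 fold change of counts after dTAG13 (y axis, edgeR) for the members tested at each stage (x axis), with called members in red, the median of members as a black bar and the median of all genes tested as a dashed blue bar. The 2 stages on the left were not used by the selection, and there 1 member was called at each (*Rgl2* at the late two-cell stage and *Ulk4* in the morula), while the 2 on the right were used by it.

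The pathway and lineage lists held members at a share near the background. The 16 lists written by hand had 360 entries that met the FPKM minimum, of which 5 (1.39%) were members, beside 0.89% of all 9888 genes. A total of 11 lists held no member, and 5 held 1 each. These were the epiblast markers (*Nodal*), FGF-ERK feedback and immediate early genes (*Atf3*), ATF4 and amino acid response genes (*Atf3* again), two-cell-like and germline genes (*Gm4340*) and imprinted genes (*Ascl2*). Of the lists the study took from public embryo data, its ICM genes held 9 members (*Apoe*, *Ccn2*, *Fez1*, *Gpt2*, *Helb*, *Nat1*, *Nkx6-2*, *Nodal* and *Pgam2*), which is 1.41% of the 639 such genes that met the FPKM minimum. Its trophectoderm genes held 3 members (*Dglucy*, *Slc20a1* and *St6galnac6*) of 665, its epiblast genes held 2 (*Dqx1* and *Gm38393*) of 156, and its primitive endoderm genes held none of 206.

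The hand-written lists that hold a member are given by their counts. Over all genes tested, 13.2% were called lower and 12.1% higher in the ICM, and 15.6% lower and 12.4% higher in 2iES cells. Of the ATF4 and amino acid response genes, 10 of 25 tested were called lower and 3 higher in the ICM, and 10 of 23 were called lower and 5 higher in 2iES cells. Of the FGF-ERK feedback and immediate early genes, 9 of 25 were called lower and 1 higher in the ICM, and 5 of 23 lower and 7 higher in 2iES cells, with list medians of -0.41 and -0.03 on the log2 scale beside 0.01 and 0.03 over all genes tested. Of the epiblast markers, 6 of 19 were called lower in 2iES cells and none higher. *Nodal* was not called there because its log2 fold change of 0.72 (SE 0.16) was below the fold limit. The imprinted genes were called lower for 7 of 25 and higher for 3 in the ICM, and lower for 4 of 26 and higher for 7 in 2iES cells. Of the two-cell-like and germline genes, 4 of 19 were called lower and 6 higher in the ICM. In 2iES cells none of 25 was called lower and 4 were called higher, and the list medians were 0.27 in the ICM and 0.91 in 2iES cells.

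Features that the selection did not use are given as a description. The median gene span was 21.9 kb for the members, 22.4 kb for all 9888 genes, 13.2 kb for the genes lower in both systems and 34.5 kb for the genes higher in both. The ETS core CCGGAAG was found in 12.3% of the 65 member promoters, in 41.5% of 982 promoters of genes lower in both, in 7.63% of 642 of genes higher in both, in 21.2% of 8009 of genes that met the FPKM minimum and in 10.9% of all 20927 promoters of that length. The shorter CGGAAG, which every CCGGAAG contains, was found in 23.1%, 58.2%, 18.2%, 35.7% and 19.9% of the same sets. Since only 65 of the 88 members had a window, fewer than 80% of them, a comparison of these shares is void for the members. The members with the core were also spread over levels, from *Slc25a17* at 47.3 and 45.8 FPKM in control ICM to *Helb* at 1.62 and 1.83 FPKM.

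Other motifs were searched on both strands in the same windows. The E-box CACGTG was found in 9.23% of member promoters, 10.8% of promoters of genes that met the FPKM minimum and 7.66% of all promoters. In the same order, the SP/KLF motif GGGCGG was found in 52.3%, 66.8% and 42.5%, the TATA box TATAAA in 9.23%, 6.78% and 13.4%, the TEAD core GGAATG in 10.8%, 11.3% and 14.1%, and the CREB/ATF motif TGACGTCA in 0 of 65, 3.75% and 2.22%. The limit of 65 windows holds for these shares too. A match is a description of letters only, and 22 of the 65 windows held none of the motifs searched.

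**Figure D5:**
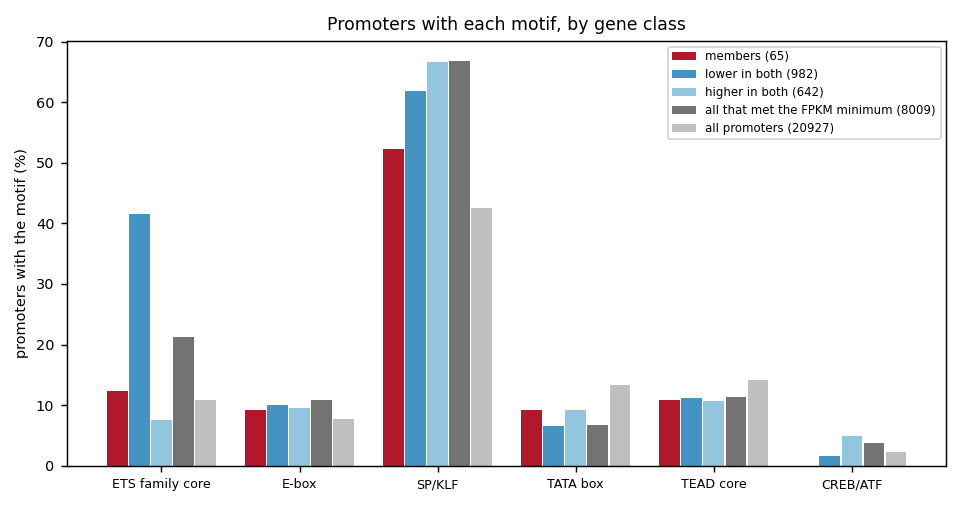
Share of promoter windows (y axis, percent, from 0) that hold each of 6 motifs (x axis), for the members, the genes lower in both systems, the genes higher in both, all genes that met the FPKM minimum and all promoters, with the number of windows in brackets. The bars of the members rest on 65 of 88 genes and are not compared with the others; among the other sets the ETS core ranged from 7.63% (higher in both) to 41.5% (lower in both).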

How the data were processed

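The 18 RNA-seq libraries (SMART-Seq v4 amplification and Nextera XT tagmentation, which keep no strand) were analysed from gene tables with 55385 identifiers. The authors used Trimmomatic for trimming, STAR for alignment (GRCm38) and RSEM for quantification, and the deposited columns hold the expected counts, FPKM and TPM of each library. Chromatin libraries of the series were not used here. Genes were named from GENCODE M21, which held 54487 identifiers with their version and 657 more without it.

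Members were chosen on FPKM as stated above. Counts were rounded, and the groups of a stage were compared by edgeR 4.0.16 (quasi-likelihood test, TMM scaling, R 4.3.3, limma 3.58.1), for genes with at least 10 counts in a number of libraries equal to the smaller group, with Benjamini-Hochberg adjustment over all genes tested. The fit was tested on simulated counts with known changes. DESeq2 1.42.0, other scalings, filters and limits, and leaving out each library, were tried as alternatives. The difference between the late two-cell and morula effects was fitted as an interaction term, which was added after seeing the data, as were the counts over members with little overlap and the crossed pairing. Tables were handled with Python 3.11.15 and pandas 2.3.3. Shared sequence was measured in 31-base words of GENCODE transcripts. Motif windows come from RefSeq (GRCm38.p6).

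The members and lists were chosen with earlier results of these data known. Genes named are *Gabpa*, the first 12 members by the smaller change, the 5 most abundant members in control ICM and in treated 2iES cells, members of a list, members called at the late two-cell or morula stage and the 3 genes on each side of a limit. *Dppa3*, *Gpt2*, *Hemk1*, *Iqcg*, *Rpgrip1*, *Coro1a*, the genes with a promoter match and those with shared sequence were chosen after their values were seen, as was *Apoe* at the late two-cell stage.

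The study's text calls the libraries of a group biological replicates, and the labels do not name the culture or litter of each, so p-values measure the spread between these libraries. The ICM replicates lay near sampling noise (a median chi-square 1.62 and 1.69 times that of sampling alone, against 2.86 to 16.1 elsewhere). Counting floors cover counting error only.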

Additional observations from a re-analysis of the deposited data

Results flagged for a closer look

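For 3 members that passed the count filter at both stages the effect of dTAG13 differed between the late two-cell embryo and the morula in an interaction term of edgeR fitted over 19860 genes, of which 628 (3.16%) had an adjusted p-value under 0.05. A total of 81 members were tested, and 13 (16%) had an unadjusted p-value under 0.05, beside 15.2% of all genes. With *Hemk1* included, 4 members (4.94%) passed the adjusted p-value, a share near that of all genes, so the differences are given for these genes alone and not as a trait of the members. Differences are given as the log2 fold change in the morula minus that at the late two-cell stage.

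For *Rgl2* the difference was -2.864 (edgeR adjusted p = 0.00279), higher in all 3 treated late two-cell libraries and lower in both treated morula libraries than in any control. For *Rpgrip1* it was -1.782 (edgeR adjusted p = 0.00179), with 20.7 and 21.96 FPKM in control morulae and 12.3 and 13.5 FPKM in treated ones beside the rise in late two-cell embryos. For *Ulk4* it was 3.529 (edgeR adjusted p = 0.00781), and it rests on morula libraries with 13 and 10 counts with DMSO. For *Hemk1* the fitted value was 5.219, but the gene was below the count filter at the late two-cell stage, with 8, 7 and 7 counts with DMSO and 0 with dTAG13. It entered the fit through its morula counts, and the fitted size depends on the prior count and is no bound. In the morula *Hemk1* was at 12.2 and 10.8 FPKM with DMSO and 8.07 and 9.31 FPKM with dTAG13. Stage, time of exposure and library depth differ together between these comparisons and cannot be told apart.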

How the results depend on the processing

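The number of members was 49 with a pseudocount of 1, 43 with ratio limits of 0.5 and 2, 27 with a mean of at least 5 FPKM, 346 with a mean of at least 0.1 FPKM and 203 with all annotated gene types, against 88. It was 93 with a pseudocount of 0.01 and 75 with TPM. Leaving out 1 library gave 85 to 104.

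At the late two-cell stage the number called lower was 0, and it was 1 with no count filter, 2 with DESeq2 and 1 with the replicate block. The number called higher was 1, and it was 5 with no count filter, 2 with DESeq2, 3 with the replicate block and 3 with no fold change limit. Leaving out each replicate gave 0 lower and 1 to 2 higher, with 2 without DMSO replicate 3. The median log2 fold change was 0.257 with upper-quartile scaling and 0.102 to 0.232 when a replicate was left out. In the morula, library totals only, no count filter and the replicate block each gave 1 member called lower, and no count filter gave 4 and the replicate block 2 called higher. Leaving out a replicate there gave 0 to 1 lower, 0 to 5 higher and a median of -0.185 to 0.084, which changes sign. Among members with little overlap with other genes, 0 were called higher in the morula.

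In the ICM the median log2 fold change was -1.143 with upper-quartile scaling, -1.181 with library totals only, -1.277 with no count filter and -1.331 to -1.275 when a replicate was left out. In 2iES cells it was 1.468 with upper-quartile scaling, and leaving out a replicate gave 45 to 64 members called higher. Among members with little overlap, 34 were called lower in the ICM and 35 higher in 2iES cells. These calls follow from the selection, and 13.2% and 12.4% of all genes tested were called in the same directions. Control medians in TPM were 1.32 in the morula, 2.897 in the ICM and 1.992 in 2iES cells, a change of unit. CGGAAG in place of CCGGAAG was found in 23.1% of member promoters. For the changes above the cause was not tested. *Rgl2* kept its call at the late two-cell stage under every alternative fit run, with a log2 fold change of 1.87 to 2.11 when a replicate was left out.

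Whether same-numbered libraries shared a litter or day is not stated and could not be settled here. Where a group held 2 libraries, both replicates give the same correlation, so weak values cannot exclude pairing. Deviations of same-numbered libraries correlated at 0.04, 0.08 and 0.10 at the late two-cell stage, 0.04 in the morula, 0.01 in the ICM and -0.15 in 2iES cells. With the replicate block, calls over all genes in the morula went from 27 to 142 lower and from 21 to 106 higher. With the numbers crossed in 2iES cells, an alternative chosen after seeing the data, 2411 genes were called lower and 2019 higher, against 2392 and 1977 with the block and 2415 and 1924 without it. The morula had the fewest counts, and 22 members there and 18 at the late two-cell stage were below the count filter and were not tested.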
